A study of Mus musculus with 12 samples.

Results

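C790 cells, a mouse melanoma line with mutant Nras, were measured on Affymetrix mouse arrays after partial reprogramming and MEK inhibition together, and set against cells that had neither. The first were "+dox trametinib" cells, given doxycycline (dox), which switched on a lentiviral cassette of Oct4, Sox2 and Klf4, up to day 20, and treated for 72 h with trametinib, an inhibitor of the kinases MEK1 and MEK2. They were compared with "-dox DMSO" cells, the control cells without doxycycline that received the solvent for 72 h at the same day 20. This pair took 6 of the 12 arrays of the series, 3 per group. The other 6 arrays, 3 of +dox DMSO and 3 of -dox trametinib cells, gave the single effects of dox and of trametinib. All 18193 genes with a probe set of their own were described, each by 1 probe set. Per the study's methods, all groups descend from the same line and carry the same vectors, the inducible cassette with its blasticidin resistance and a second lentivirus for the rtTA activator and mCherry. The -dox cells are thus transduced but not induced cells. The labels do not say whether the 3 arrays of a group came from separate cultures, and p-values cover no more than how far these arrays spread. The dose of trametinib on the arrays is not given in the sources used here.

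As background, mutant Nras keeps the RAF, MEK and ERK kinases active in melanoma cells. ERK switches on early response transcription factors such as EGR1 and the ETV factors, along with its own brakes, the DUSP phosphatases and the Sprouty proteins, and it drives cells through the cell cycle by way of cyclin D1 and MYC. Oct4, Sox2 and Klf4 are transcription factors that in combination can return differentiated cells towards a pluripotent state, and a short induction leaves the cells partway. Interferons are secreted antiviral signals. They switch on antiviral genes, many of which carry interferon-stimulated response elements in their promoters.

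Values are log2 intensities, so that 1 unit is a change of 2-fold. The combined change is the mean of +dox trametinib minus the mean of -dox DMSO arrays. The departure from additivity, called the departure here, is the combined change minus the sum of the effect of dox under DMSO and the effect of trametinib without dox. A departure of 0 means that the single effects add up on the log2 scale. A positive one means that +dox trametinib lay above their sum. All values come from 1 limma fit over the 12 arrays with Benjamini-Hochberg adjustment over all genes. A combined change was called where it was over 2-fold at an adjusted p under 0.05, and a departure at an adjusted p under 0.05 alone. Probe sets of sensory receptor genes, which these cells should not use, set a background level of 4.78. Where the lower group had all 3 arrays under it, only a bound is given ("at least"), which is the higher mean minus this level.

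The arrays of a group resembled each other closely, except for -dox DMSO replicate 1. Its correlation over genes with the other arrays of its group was 0.979 to 0.984, against 0.985 or more within each other group, and its quality weight was 0.195 against 6.98 for -dox DMSO replicate 3. The number of genes called in the combined change was 1639 with this array and 1730 without it. The label of the cells as melanoma was checked against melanocyte genes. Of 19 measured genes of melanocyte differentiation, 11 had a mean under the background level in all 4 groups, among them Tyr, Tyrp1, Dct and Mlana, which encode pigment cell enzymes and antigens. Mitf, the master factor of melanocytes, was above it in all groups, and so was Pmel, another marker of melanocyte differentiation. Of the 3 factors of the cassette, 1 rose in its own probe set. Klf4 measured 10.32, 9.99 and 9.74 on the +dox trametinib arrays and 8.90, 9.64 and 9.81 on the -dox DMSO arrays (adjusted p = 0.11 from limma). Sox2 measured 6.57, 5.78 and 5.94 on the +dox trametinib arrays and 6.48, 8.07 and 7.65 on the -dox DMSO arrays (adjusted p = 0.073), so that the highest values of both genes lay in different groups. Pou5f1, the gene of Oct4, rose by 1.24 (5.69, 6.15 and 5.79 against 4.30, 4.73 and 4.87, adjusted p = 3.4e-04). Whether these probe sets detect the cassette's transcript was not tested.

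In +dox trametinib cells 812 genes were higher and 827 lower than in -dox DMSO cells. That is 9.01% of the 18193 genes in all, 4.46% higher and 4.55% lower. The corresponding shares were 2.61% for dox under DMSO, with 201 genes higher and 273 lower, and 7.59% for trametinib without dox, with 565 higher (3.11%) and 815 lower (4.48%). These 3 comparisons share the -dox DMSO arrays, so their gene sets were not set against each other. In 6700 genes, 36.8% of all, the 3 +dox trametinib arrays did not overlap with the 3 -dox DMSO arrays, lying above them in 20.2% and below them in 16.6%. At an adjusted p under 0.05 with no fold threshold, 4362 genes were called in the combined change, 24.0% of all, 12.5% higher and 11.5% lower. The shares of the combined change are the base for all counts of list members that rose or fell.

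A departure from the sum of the single effects was called in 60 genes, 0.33% of all. The +dox trametinib mean lay above the sum in 47 of them (0.258%) and below it in 13 (0.0715%). Over all 18193 genes the departure was positive in 8344 and negative in 9754. At an unadjusted p under 0.05 from limma it was positive in 1073 and negative in 1043. These numbers are the base for the signs of departures within lists. The departure exceeded 0.5 in size in 2730 genes and 1 in 3.79% of genes. Its 95% interval lay wholly within -1 to 1 in 78.2%, and excluded 0 in 11.6%. Of all genes 5543 had no group mean above background. With all 4 group means above background the interval lay within -1 to 1 in 71.8% of genes. It did so in only 34.9% of the 812 genes that rose and 23.8% of the 827 that fell, and excluded 0 in 34.0% and 21.8% of them. For most genes that changed the departure is thus not bounded to that range. The count of called departures depended strongly on single arrays. It was 200 without -dox DMSO replicate 1, with 160 above and 40 below the sum, 179 without +dox DMSO replicate 1, 141 without -dox trametinib replicate 1 and 13 to 46 without any other array. It was also sensitive to scale. Centring each array on its median moves every departure by -0.183, and 217 were then called, 49 above and 168 below the sum.

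**Figure D1:**
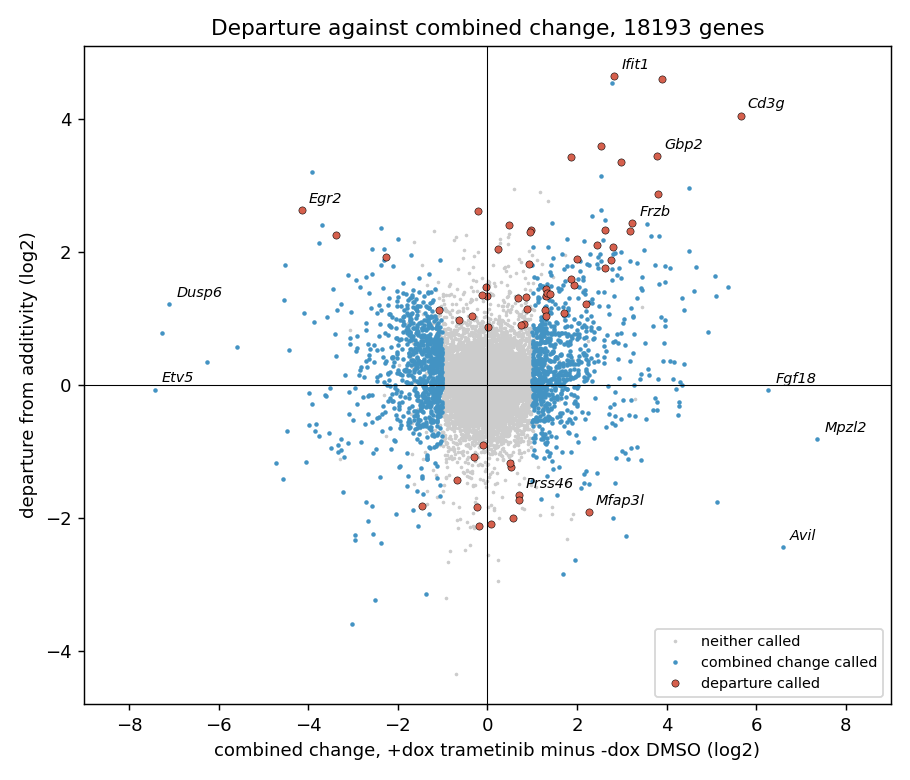
Departure from additivity (vertical axis, log2) against the combined change of +dox trametinib minus -dox DMSO (horizontal axis, log2), 1 point per gene for 18193 genes. Blue points are the other genes called in the combined change, and outlined red points the 60 genes called for a departure. Etv5 and Fgf18 lie at large combined changes with a departure near 0, and 47 of the 60 red points lie above 0.

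Among the 812 genes that rose, the median combined change was 1.49, where the single effects had medians of 0.248 for dox and 1.02 for trametinib. The median departure was 0.31, with quartiles of -0.128 and 0.823, so that the typical rise was somewhat larger than the sum. Among the 827 genes that fell, the median combined change was -1.46. The medians of the single effects there were -0.233 for dox and -1.36 for trametinib, and the median departure was 0.27, so that the typical fall was smaller than the sum. The departure exceeded 1 in size in 23.0% of the rises and 17.7% of the falls, and was called in 27 of the rises and 5 of the falls. With equal spread in all groups the error of the departure is uncorrelated with that of the combined change. Choosing genes by the combined change therefore carries no error of its own into the departure. That holds for equal spread, and the spread of -dox DMSO was enlarged by its replicate 1. The departure is also a part of the combined change, so choosing large changes can still favour departures of the same sign. In genes with all 4 group means above background the median departure was 0.20 over 636 rises and 0.24 over 677 falls. Counted in the direction of the change, the median departure was 0.31 for rises and -0.27 for falls with all arrays, 0.286 and -0.371 without -dox DMSO replicate 1, and 0.11 and -0.093 with each array centred on its median.

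**Figure D2:**
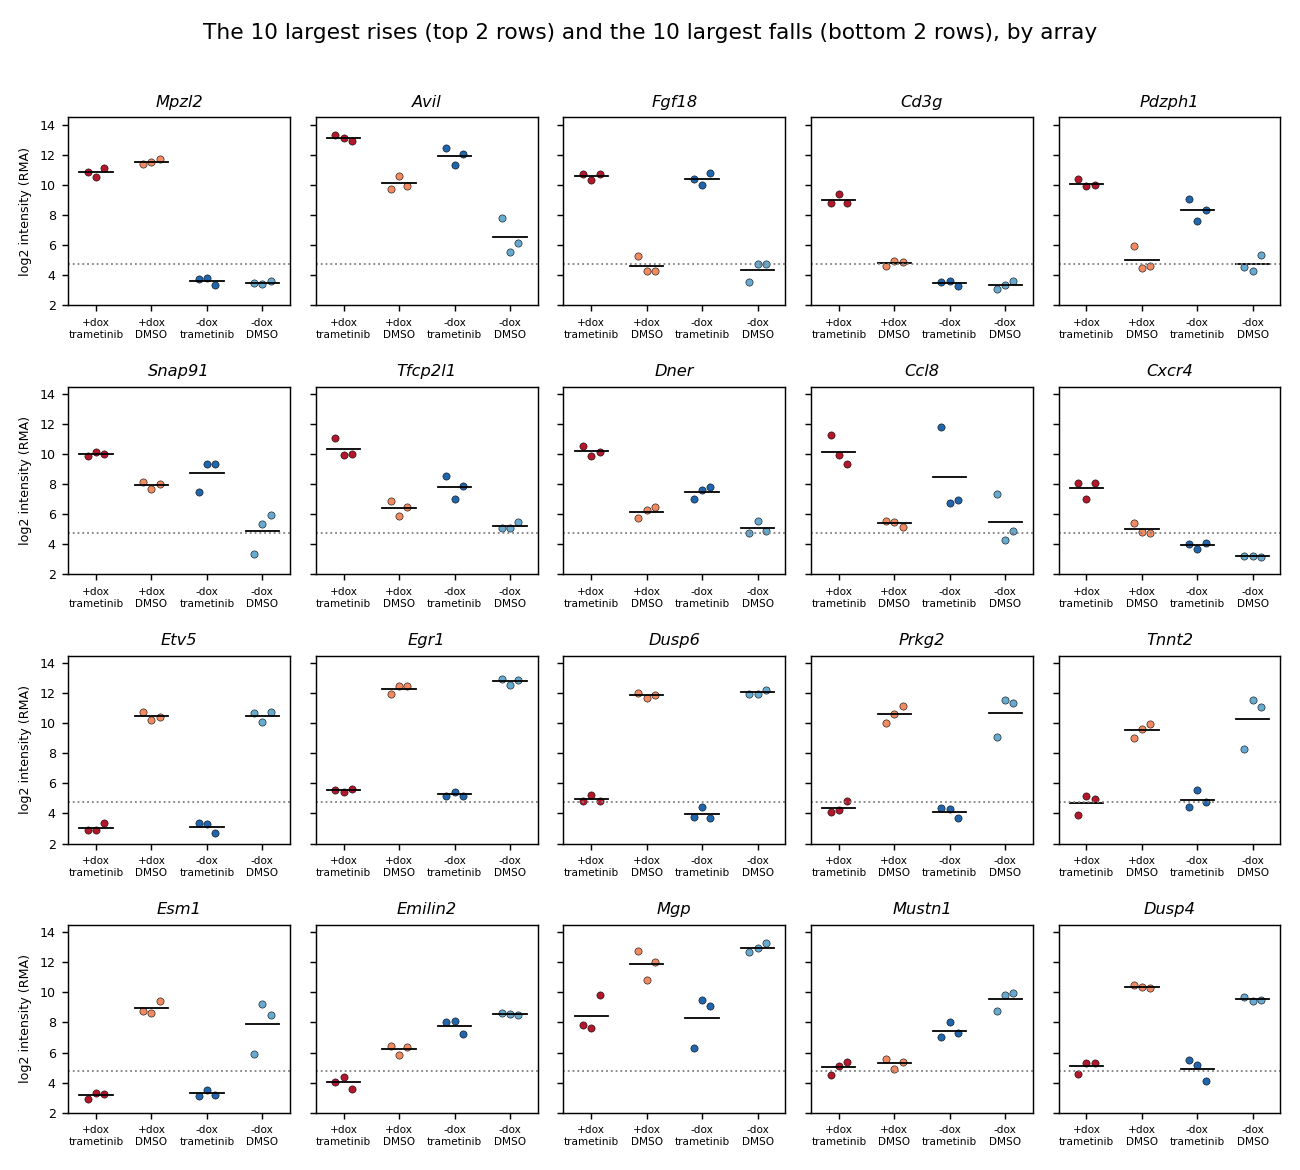
Log2 intensity on each array (points) and group mean (bars) of the 10 largest rises, in the upper rows, and the 10 largest falls, in the lower rows. Groups run from +dox trametinib, +dox DMSO and -dox trametinib to -dox DMSO, and the dotted line is the background level of 4.78. Mpzl2 is high in both +dox groups, Fgf18 in both trametinib groups, and Cd3g stands high in +dox trametinib cells.

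Genes that ERK switches on were among the largest falls. Etv5, a transcription factor induced by ERK, measured 2.87, 2.92 and 3.38 on the +dox trametinib arrays, all under background, and 10.66, 10.06 and 10.74 on the -dox DMSO arrays. It fell by at least 5.71 (adjusted p = 1.5e-08), with -0.01 for dox alone and a fall by at least 5.71 for trametinib alone. Egr1, an early response transcription factor, measured 5.57, 5.44 and 5.63 on the +dox trametinib arrays and 12.96, 12.55 and 12.91 on the -dox DMSO arrays. It fell by 7.26 (standard error 0.17, adjusted p = 7.9e-10), against an effect of -7.54 for trametinib alone. Dusp6, a phosphatase that removes the activating phosphates from ERK, measured 4.83, 5.24 and 4.81 on the +dox trametinib arrays and 11.98, 11.97 and 12.24 on the -dox DMSO arrays, so that it fell by 7.10 (adjusted p = 4.4e-09). The groups stood far apart in all 3 genes, and the dox effect was under 1 in size. None of the 3 had a called departure, with intervals of -0.81 to 0.67 for Etv5, 0.26 to 1.29 for Egr1 and 0.60 to 1.83 for Dusp6. Etv5 and Dusp6 were under background on all -dox trametinib arrays, so that their departures are fitted values.

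ERK pathway output was measured in 26 genes. In +dox trametinib cells 22 of them fell, none rose and 4 were not called, against 4.55% of all genes that fell. The median combined change was -2.15, beside 0.013 for dox under DMSO and -2.69 for trametinib without dox. Dusp4, another ERK phosphatase, fell by 4.47 (adjusted p = 6.2e-06). Myc, which drives growth, fell by 2.99 (adjusted p = 3.8e-04). Both had a positive value under dox alone, 0.85 for Dusp4 and 0.98 for Myc. Ccnd1, the gene of cyclin D1, measured 9.64, 10.74 and 10.22 on the +dox trametinib arrays and 12.06, 12.31 and 12.25 on the -dox DMSO arrays. It fell by 2.01 (adjusted p = 1.2e-04), beside -3.51 for trametinib alone, and its departure of 1.18 (interval 0.49 to 1.87) was not called (adjusted p = 0.16). Dusp5, Egr3, Plaur and Hbegf were the 4 that did not pass. They had combined changes of 0.11, -0.22, -0.46 and -0.52. The number of members that fell was 21 to 23 when any 1 of the 12 arrays was left out. Egr2, an early response factor that also serves myelination, was the 1 member with a called departure. It measured 4.28, 4.90 and 4.88 on the +dox trametinib arrays and 8.73, 8.46 and 9.30 on the -dox DMSO arrays, with 5.79, 6.83 and 7.05 under dox alone and 4.53, 4.22 and 4.23 under trametinib alone. All 3 -dox trametinib arrays were under background. The combined change of -4.14 was smaller in size than the sum of -2.27 for dox and the fall under trametinib, of which only a bound of at least 4.05 is known. Its departure was 2.63 (standard error 0.45, adjusted p = 0.039), and the call ended with the mean of its probe sets and without any 1 of 9 of the arrays, up to an adjusted p of 0.098.

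**Figure D3:**
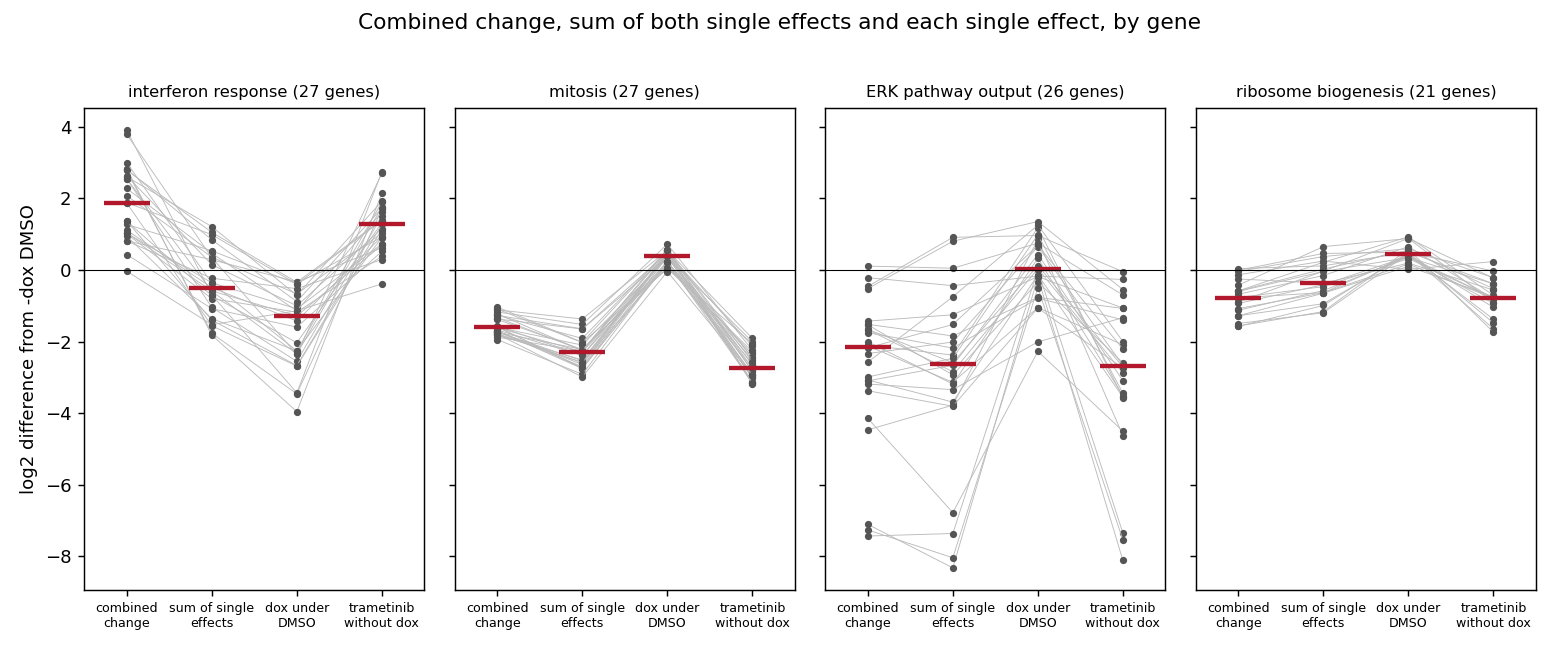
Log2 differences from -dox DMSO for the genes of 4 lists. In each panel a grey line joins the combined change, the sum of both single effects, the effect of dox under DMSO and the effect of trametinib without dox of a gene, and red bars are medians. Interferon response genes lie above 0 in the combined change (median 1.88) and below it under dox alone (median -1.28), while mitosis genes have a median of -1.60 in the combined change and of -2.73 under trametinib alone.

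Genes of mitosis fell in +dox trametinib cells. Of 27 measured genes, 25 fell, 0 rose and 2 (Mad2l1 and Nusap1) did not pass the test, against 4.55% of all genes that fell. The median combined change was -1.60. Dox under DMSO gave a median of 0.39 and trametinib without dox one of -2.73. The departure was positive in 27 of 27 genes, with a median of 0.813 (0.63 with arrays centred on their median), but was called in none of them by limma, and 5 had an unadjusted p under 0.05. Over all genes the interval of the departure excluded 0 in 11.6%. Ttk, a kinase of the spindle checkpoint, measured 6.85, 7.66 and 6.24 on the +dox trametinib arrays and 8.60, 8.95 and 9.03 on the -dox DMSO arrays, so that it fell by 1.94 (adjusted p = 0.0012). Cdc25c, the phosphatase that activates CDK1, fell by 1.88 (adjusted p = 0.0014), and Aurkb, a kinase of chromosome segregation, by 1.82 (adjusted p = 0.0097). Mki67, the gene of the proliferation marker Ki-67, measured 9.49, 10.39 and 8.80 on the +dox trametinib arrays and 11.53, 11.20 and 11.32 on the -dox DMSO arrays. On -dox trametinib arrays it measured 8.84, 8.05 and 8.33, so that 1 of 3 +dox trametinib arrays lay under the highest of these, and its departure of 1.20 (interval 0.12 to 2.28) did not pass after adjustment (adjusted p = 0.37). The +dox trametinib arrays spread widely over these genes. The median level of the list was 8.32, 9.14 and 7.67 on replicates 1, 2 and 3, against 9.48, 10.06 and 10.08 on the -dox DMSO replicates, and 7.56, 7.01 and 6.99 on the -dox trametinib replicates. The count of falls was 17 to 27 when any 1 array was left out. In samples of whole cultures, fewer dividing cells and less transcript per cell cannot be told apart.

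DNA replication genes followed the same order of medians, with -1.03 for the combined change, 0.162 for dox and -1.65 for trametinib. Of 26 measured genes 13 fell and 0 rose, against 4.55% of all genes that fell. Cdt1, which licenses replication origins, fell by 2.29 (8.73, 9.26 and 7.97 against 10.94, 10.95 and 10.95, adjusted p = 2.5e-04). Pole, the catalytic subunit of DNA polymerase epsilon, fell by 1.82 (adjusted p = 0.0013), and Mcm3, a subunit of the replicative helicase, by 1.79 (adjusted p = 0.0059). No departure was called among them by limma, with 2 at an unadjusted p under 0.05, beside 11.6% of all genes whose interval excluded 0. The largest in size was 0.91 in Mcm10 (interval -0.12 to 1.95, adjusted p = 0.49). The number that fell was 10 to 18 when any 1 array was left out, with the lowest count without +dox trametinib replicate 3.

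The promoters of mitosis genes are shown because these genes moved together. A cell cycle homology region (TTTGAA, either strand) is the element through which the MuvB complexes act on genes of mitosis. In RefSeq promoter windows, which hold 250 bases before and 50 after a gene's start (GRCm38.p6), it was found in 16 of 22 windows of the list (72.7%), from 21 of its 27 genes. It was found in 13.4% of 18109 windows of the genes on the arrays. The 150 bases before the start are printed for 3 genes, chosen after their values were seen for holding a match in that stretch, with the matches in capitals. They are Cdk1, the kinase of mitotic entry (fell by 1.37), Cdc20, an activator of the anaphase-promoting complex (fell by 1.33), and Kif11, a motor of the spindle (fell by 1.72). A match is a description of the letters and not evidence of a bound site.
Cdk1 (chr10:69352913-69353062, - strand): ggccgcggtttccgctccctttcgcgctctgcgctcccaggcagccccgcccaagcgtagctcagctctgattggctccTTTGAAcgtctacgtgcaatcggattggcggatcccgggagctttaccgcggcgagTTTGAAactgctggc
Cdc20 (chr4:118437344-118437493, - strand): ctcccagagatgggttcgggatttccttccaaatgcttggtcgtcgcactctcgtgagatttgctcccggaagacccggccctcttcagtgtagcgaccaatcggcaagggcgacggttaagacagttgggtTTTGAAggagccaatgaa
Kif11 (chr19:37376232-37376381, + strand): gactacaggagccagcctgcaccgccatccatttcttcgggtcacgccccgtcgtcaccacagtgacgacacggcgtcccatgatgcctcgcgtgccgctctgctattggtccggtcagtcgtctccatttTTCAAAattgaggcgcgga

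Ribosome biogenesis is stimulated by ERK and MYC. Of its 21 measured genes 7 fell, 0 rose and 14 did not pass with the fold threshold, against 4.55% of all genes that fell. At an adjusted p under 0.05 alone 14 fell, against 11.5% of all genes. The median combined change was -0.773, with 0.45 for dox under DMSO and -0.783 for trametinib without dox. The departure was negative in 20 of 21 genes, with a median of -0.47 (-0.65 with arrays centred on their median), and called in none by limma, with 7 at an unadjusted p under 0.05. Wdr12, which matures the large ribosomal subunit, measured 6.79, 7.11 and 6.79 on the +dox trametinib arrays and 8.18, 8.63 and 8.61 on the -dox DMSO arrays, so that it fell by 1.58 (adjusted p = 2.9e-04). Dkc1, a pseudouridine synthase, fell by 1.57 (adjusted p = 3.0e-05), and Fbl, the methyltransferase of ribosomal RNA, by 1.50 (adjusted p = 9.4e-05). All 3 had a positive value under dox alone, from 0.45 for Fbl to 0.58 for Dkc1, and fell in the combination. Of 20 measured lysosome genes 2 rose with the fold threshold, against 4.46% of all genes, and 13 without it, against 12.5%. The median combined change of the lysosome genes was 0.507. Neu1, a sialidase, rose by 1.77 (9.04, 9.13 and 8.92 against 7.06, 7.46 and 7.26, adjusted p = 1.5e-05), and Lamp2, a membrane protein of lysosomes, by 1.21 (adjusted p = 6.4e-05).

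Interferon response genes rose in +dox trametinib cells, and 7 of them departed from the sum of the single effects. Of 27 measured genes 21 rose, 0 fell and 6 did not pass, against 4.46% of all genes that rose. The median combined change was 1.88, although dox alone gave a median of -1.28, with all 27 +dox DMSO means under those of -dox DMSO, and trametinib alone one of 1.27. The +dox trametinib mean was also above the -dox trametinib mean in 26 of 27 genes. The departure was positive in 27 of 27, with a median of 1.81 (1.62 with arrays centred on their median). At an unadjusted p under 0.05 it was positive in 25 genes. It was called in 7 genes, against 0.258% of all genes: Ifit1, Oasl2, Rsad2, Iigp1, Gbp2, Gbp3 and Samd9l. The genes of the GBP and OAS families resemble each other in sequence, so their probe sets may share signal.

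Ifit1, which binds viral RNA, measured 11.89, 11.45 and 11.59 on the +dox trametinib arrays and 7.86, 10.06 and 8.53 on the -dox DMSO arrays. It measured 5.01, 4.87 and 4.70 under dox alone and 11.53, 11.00 and 10.33 under trametinib alone. The combined change of 2.83 (standard error 0.46, adjusted p = 0.0011) stood against a sum of single effects of -3.96 and 2.14, a departure of 4.65 (interval 3.22 to 6.07, adjusted p = 0.022). Gbp2, an interferon-induced GTPase that coats pathogen vacuoles, measured 13.78, 13.19 and 13.25 on the +dox trametinib arrays and 9.24, 10.17 and 9.46 on the -dox DMSO arrays, with 7.13, 7.04 and 7.63 under dox alone. Dox lowered both genes on its own, yet both had a higher mean in +dox trametinib than in -dox trametinib cells, where Gbp2 measured 13.15, 11.83 and 11.99. Gbp2 rose by 3.78 (adjusted p = 3.4e-05) with a departure of 3.44 (adjusted p = 0.022). Iigp1, a GTPase of cell-autonomous immunity, measured 11.64, 10.47 and 10.87 on the +dox trametinib arrays and 6.06, 8.19 and 7.03 on the -dox DMSO arrays. All 3 +dox DMSO arrays of Iigp1 were under background (3.81, 3.78 and 3.39), so that its departure of 4.60 (adjusted p = 0.03) rests on an effect of dox of which only a bound is known. Samd9l, an antiviral and growth-restraining gene, had the departure with the smallest p of the list. It measured 10.80, 10.50 and 10.31 on the +dox trametinib arrays, 7.20, 7.43 and 7.37 under dox, 10.90, 10.31 and 10.27 under trametinib and 9.53, 9.72 and 9.53 on the -dox DMSO arrays. Its departure was 2.30 (standard error 0.25, adjusted p = 0.0075), and its combined difference of 0.94 missed the fold threshold. Its departure kept its call under every alternative that could be run. That of Ifit1 and of Gbp2 lost it without any 1 of 5 arrays, that of Iigp1 without any 1 of 7 and that of Gbp3 without any 1 of 9, up to an adjusted p of 0.0974.

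**Figure D4:**
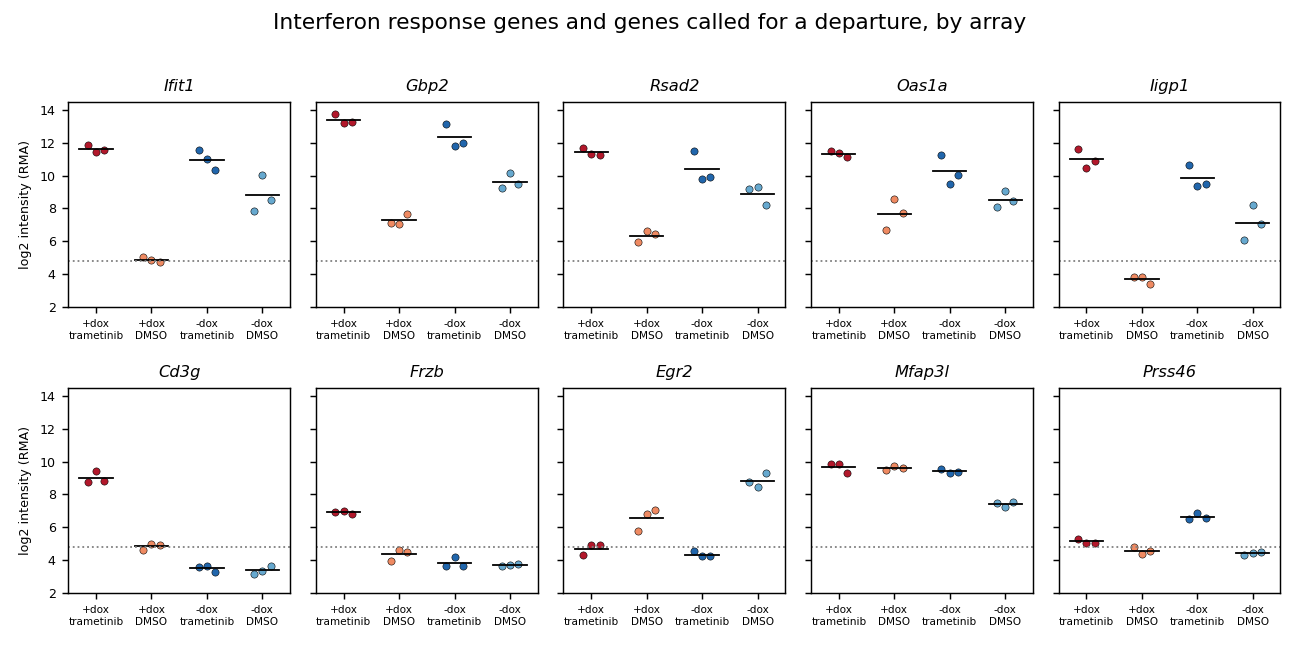
Log2 intensity on each array (points) and group mean (bars) of 5 interferon response genes and 5 further genes called for a departure, in the order +dox trametinib, +dox DMSO, -dox trametinib and -dox DMSO. The dotted line is the background level of 4.78. Ifit1, Gbp2, Rsad2 and Iigp1 are lowest in +dox DMSO cells and highest on average in +dox trametinib cells, and Mfap3l is at a like level in 3 groups.

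The interferon genes also varied between replicates of the groups without dox. The median level of the list was 11.3, 10.71 and 10.87 on the +dox trametinib replicates and 6.95, 7.27 and 7.34 on the +dox DMSO replicates. It was 11.11, 9.71 and 9.89 on the -dox trametinib replicates and 8.4, 9.67 and 8.7 on the -dox DMSO replicates. The +dox trametinib arrays were above every -dox DMSO array in this median, and -dox trametinib replicate 1 lay among them. The number of rises was 17 to 23 when any 1 array was left out, 19 without -dox DMSO replicate 1. The number of called departures was less stable. It was 1 without +dox trametinib replicate 1, without +dox DMSO replicate 2 or 3, or without -dox trametinib replicate 3. It was 3 or 4 without +dox trametinib replicate 2 or 3, -dox trametinib replicate 2 or -dox DMSO replicate 2 or 3, and it reached 12 when -dox DMSO replicate 1 was left out and 15 when -dox trametinib replicate 1 was.

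Interferon promoters are shown for the same reason as those of mitosis. The interferon-stimulated response element was searched as GAAANNGAAA on either strand, with overlapping matches counted apart. It was found in 13 of 23 promoter windows of the list (56.5%), from 20 of the 27 genes, and in 3.03% of 18109 windows of the genes on the arrays. The 150 bases before the start are printed for 4 genes, chosen after their values were seen for holding a match there, in RefSeq sequence of GRCm38.p6 with the matches in capitals. Besides Ifit1 and Gbp2 they are Rsad2, the antiviral enzyme viperin, and Oas1a, a synthase of oligoadenylates that activate RNase L. Rsad2 measured 11.70, 11.34 and 11.28 on the +dox trametinib arrays and 9.18, 9.30 and 8.20 on the -dox DMSO arrays, with a departure of 3.59 (adjusted p = 0.035). Oas1a measured 11.50, 11.36 and 11.16 on the +dox trametinib arrays and 8.08, 9.07 and 8.45 on the -dox DMSO arrays, with a departure of 1.97 that was not called (adjusted p = 0.29). In Oas1a the 2 matches overlap. In Oasl2, which also had a called departure (3.43, adjusted p = 0.031), these letters were not in the window. Nor were they in that of Samd9l, whose departure was called too.
Ifit1 (chr19:34640739-34640888, + strand): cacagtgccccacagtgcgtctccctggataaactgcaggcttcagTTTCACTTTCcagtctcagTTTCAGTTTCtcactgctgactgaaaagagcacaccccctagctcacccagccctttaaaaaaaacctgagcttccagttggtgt
Gbp2 (chr3:142620513-142620662, + strand): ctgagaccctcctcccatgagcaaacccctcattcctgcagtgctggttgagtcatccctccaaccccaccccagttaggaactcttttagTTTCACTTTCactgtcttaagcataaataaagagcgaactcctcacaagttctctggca
Rsad2 (chr12:26456453-26456602, - strand): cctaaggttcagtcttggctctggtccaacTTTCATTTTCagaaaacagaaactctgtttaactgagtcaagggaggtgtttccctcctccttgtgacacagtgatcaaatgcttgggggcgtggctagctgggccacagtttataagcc
Oas1a (chr5:120907526-120907675, - strand): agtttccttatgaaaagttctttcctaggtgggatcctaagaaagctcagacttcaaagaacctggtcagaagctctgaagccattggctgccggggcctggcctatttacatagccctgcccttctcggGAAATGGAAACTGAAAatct

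Of 14 measured genes of antigen presentation, 3 rose and 0 fell, against 4.46% of all genes that rose. Nlrc5, the transcriptional activator of MHC class I genes, measured 8.74, 8.07 and 7.88 on the +dox trametinib arrays and 5.56, 6.20 and 5.35 on the -dox DMSO arrays, a rise by 2.53 (adjusted p = 0.0012). Psmb9, a subunit of the immunoproteasome, rose by 1.78 (adjusted p = 0.0093), and Tap1, the peptide transporter, by 1.02 (adjusted p = 0.017). Tap1 lost the call with the mean of its probe sets, and without -dox DMSO replicate 1 or +dox trametinib replicate 3. Its adjusted p reached up to 0.0617. In all 3 the dox effect under DMSO was negative (a fall by at least 0.92 in Nlrc5) and the departure positive but not called. Among 21 inflammatory cytokines and chemokines 1 rose and 3 fell, against 4.46% and 4.55% of all genes. Ccl7, which attracts monocytes, rose by 2.73 (adjusted p = 0.015, up to 0.056 without +dox trametinib replicate 1 or -dox DMSO replicate 2 or 3), and Lif, a cytokine of the IL-6 family, fell by 1.52 (adjusted p = 0.0087). Cxcl12 measured 3.83, 3.82 and 3.94, under background, on the +dox trametinib arrays and 5.44, 4.82 and 5.06 on the -dox DMSO arrays. Its call as lower was lost with the mean of its probe sets and without +dox trametinib replicate 1, up to an adjusted p of 0.0898. Tslp was called as lower but was under background on every array. Il6 showed opposite single effects, -1.77 for dox and 5.04 for trametinib. It measured 9.21, 9.61 and 6.92 on the +dox trametinib arrays and 9.04, 6.42 and 5.97 on the -dox DMSO arrays, which overlapped (adjusted p = 0.34).

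Among the largest rises the single effects differed from gene to gene. Cd3g, which is described with the departures, was high in the combination only. Mpzl2, an adhesion protein of epithelia, measured 10.90, 10.54 and 11.16 on the +dox trametinib arrays and 3.49, 3.43 and 3.61 on the -dox DMSO arrays, all 3 under background. It rose by at least 6.09 (adjusted p = 7.9e-10), and by at least 6.77 under dox alone, while all -dox trametinib arrays were under background too. Fgf18, a fibroblast growth factor, measured 10.76, 10.32 and 10.74 on the +dox trametinib arrays and 3.55, 4.72 and 4.73 on the -dox DMSO arrays. It rose by at least 5.83 (adjusted p = 2.2e-06), and by at least 5.62 under trametinib alone, while the +dox DMSO mean was under background. Each gene was thus high with 1 of the factors alone, dox for Mpzl2 and trametinib for Fgf18. Avil, an actin-binding protein of sensory neurons, measured 13.30, 13.10 and 12.94 on the +dox trametinib arrays and 7.83, 5.53 and 6.18 on the -dox DMSO arrays. It rose by 6.60 (standard error 0.49, adjusted p = 1.0e-05), which was less than 3.60 for dox plus 5.44 for trametinib, with a departure of -2.44 (interval -3.98 to -0.90, adjusted p = 0.18). Snap91, a clathrin adaptor of synapses, also had a negative departure, -1.76 with an interval of -3.65 to 0.13, beside a combined rise by 5.12 (adjusted p = 1.8e-04).

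Other large rises went past the sum of the single effects in value. Tfcp2l1, a transcription factor of naive pluripotent cells and of kidney ducts, measured 11.10, 9.94 and 10.01 on the +dox trametinib arrays and 5.09, 5.11 and 5.52 on the -dox DMSO arrays. It rose by 5.11 (adjusted p = 1.5e-05) against 1.20 for dox and 2.58 for trametinib. Dner, a transmembrane ligand of the Notch family, measured 10.55, 9.88 and 10.12 on the +dox trametinib arrays and 4.79, 5.58 and 4.91 on the -dox DMSO arrays, a rise by 5.09 (adjusted p = 2.2e-06). The +dox trametinib arrays were above those of every other group in both. Their departures of 1.33 (adjusted p = 0.41) and 1.64 (adjusted p = 0.13) were not called. Pdzph1 rose by 5.37 (adjusted p = 1.7e-05). Cxcr4, the receptor of the chemokine CXCL12, measured 8.09, 6.99 and 8.11 on the +dox trametinib arrays and 3.22, 3.26 and 3.19 on the -dox DMSO arrays, at least 2.95 higher (adjusted p = 2.6e-06), with a departure of 2.01 (adjusted p = 0.069). In Cxcr4 2 group means were under background, so that its departure is a fitted value. Ccl8, a chemokine, measured 11.25, 9.94 and 9.32 on the +dox trametinib arrays and 7.36, 4.27 and 4.91 on the -dox DMSO arrays. Its rise by 4.66 (adjusted p = 0.015) was no longer called without +dox trametinib replicate 1 or -dox DMSO replicate 2 or 3, up to an adjusted p of 0.0652.

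Besides the ERK genes, the largest falls included Prkg2, a cGMP-dependent kinase. It measured 4.12, 4.21 and 4.83 on the +dox trametinib arrays and 9.07, 11.57 and 11.32 on the -dox DMSO arrays, so that it fell by 6.27 (adjusted p = 2.7e-05). Tnnt2, a cardiac troponin, fell by 5.60 (adjusted p = 2.5e-04), and Esm1, a secreted proteoglycan, by at least 3.09 (adjusted p = 3.9e-04). In all 3 genes -dox DMSO replicate 1 was the lowest of its group by over 2, with 8.29, 11.52 and 11.08 for Tnnt2 and 5.88, 9.22 and 8.51 for Esm1. Emilin2, a matrix glycoprotein, measured 4.04, 4.40 and 3.60 on the +dox trametinib arrays and 8.63, 8.59 and 8.50 on the -dox DMSO arrays. It fell by at least 3.79 (adjusted p = 2.2e-06), past the sum of -2.36 and -0.79 in value. With all 3 +dox trametinib arrays under background, its departure of -1.41 (adjusted p = 0.15) is a fitted value. Mustn1, a nuclear protein of the musculoskeletal system, measured 4.53, 5.12 and 5.37 on the +dox trametinib arrays, 5.57, 4.88 and 5.39 under dox alone and 8.75, 9.85 and 9.99 on the -dox DMSO arrays. Dox alone had brought it close to background, and the combined fall of -4.52 was less than the sum of -4.25 and -2.08 (departure 1.80, adjusted p = 0.18).

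Extracellular matrix genes split. Of 25 measured genes 3 rose and 9 fell, against 4.46% and 4.55% of all genes. Col4a1 and Col4a2, the 2 chains of the main basement membrane collagen that lie head to head in the genome, both rose. Col4a1 measured 12.09, 12.04 and 12.10 on the +dox trametinib arrays and 9.36, 9.92 and 9.44 on the -dox DMSO arrays (rise by 2.50, adjusted p = 6.3e-06), with 1.50 for dox and 0.15 for trametinib. Col4a2 rose by 2.60 (adjusted p = 1.6e-05). Mgp, an inhibitor of calcification, fell by 4.54 (7.84, 7.65 and 9.85 against 12.69, 12.95 and 13.31, adjusted p = 0.0022), beside -4.70 for trametinib. Col12a1, a collagen on the surface of fibrils, fell by 3.41 (adjusted p = 4.9e-04), beside -4.11 for dox. Lamb1, a laminin chain, fell by 3.36 (adjusted p = 1.0e-04), beside -3.87 for trametinib. The larger single effect was thus that of dox in some members and that of trametinib in others. Of 15 genes of epithelial-mesenchymal transition and cadherins 1 rose and 3 fell. Twist2, a mesenchymal transcription factor, fell by 2.30 (adjusted p = 4.8e-04), Snai2 by 1.47 (adjusted p = 0.004) and Snai1 by 1.11 (adjusted p = 0.006). Cdh1, the gene of E-cadherin, measured 5.13, 5.45 and 4.38 on the +dox trametinib arrays and was under background on all arrays of the other groups, so that only a rise by at least 0.21 is known (adjusted p = 0.0024).

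Of 20 measured receptor tyrosine kinases 0 rose and 5 fell, against 4.46% and 4.55% of all genes. Pdgfra and Pdgfrb, the receptors of platelet-derived growth factors, measured 6.23, 6.35 and 7.07 and 6.99, 7.01 and 8.01 on the +dox trametinib arrays, against 8.59, 8.66 and 8.87 and 8.89, 9.77 and 9.98 on the -dox DMSO arrays. They fell by 2.16 (adjusted p = 3.0e-04) and 2.21 (adjusted p = 0.01), and dox alone gave -2.07 and -2.40. Epha2, an ephrin receptor, fell by 2.18 (adjusted p = 0.0012), where dox gave 0.68 and trametinib -2.21. Among 14 FGF ligands 10 were under background in all groups. Besides Fgf18, Fgf7 changed, with 7.92, 7.78 and 7.79 on the +dox trametinib arrays and 11.63, 11.97 and 11.81 on the -dox DMSO arrays, so that it fell by 3.97 (adjusted p = 3.0e-05), beside -3.04 for dox. Fgf2 was called as lower but was under background on every array. In the TGF-beta and ID list 1 of 16 genes rose and 3 fell. Bmp4, a bone morphogenetic protein, fell by 2.09 (adjusted p = 3.3e-04), Tgfb3 by 1.74 (adjusted p = 3.5e-04) and the inhibitor Smad7 by 1.10 (adjusted p = 0.0071), while Tgfb2 rose by 1.42 (adjusted p = 0.0074). In the Wnt pathway 3 of 24 genes rose and 0 fell, namely Frzb, Dkk2 and Sfrp1. Among the other secreted antagonists of the list, Dkk1, Dkk3, Sfrp2 and Wif1 were not called, with differences of 0.04, -0.62, -0.33 and 0.71. Frzb is described with the departures. Dkk2 measured 6.53, 6.72 and 7.47 on the +dox trametinib arrays and under background on all -dox DMSO arrays (at least 2.13 higher, adjusted p = 3.3e-04). Sfrp1 rose by 1.34 (adjusted p = 0.03). It lost the call in the fit on the compared groups only, and without any 1 of the +dox trametinib arrays or -dox DMSO replicate 2 or 3. Its adjusted p reached up to 0.108.

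**Figure D5:**
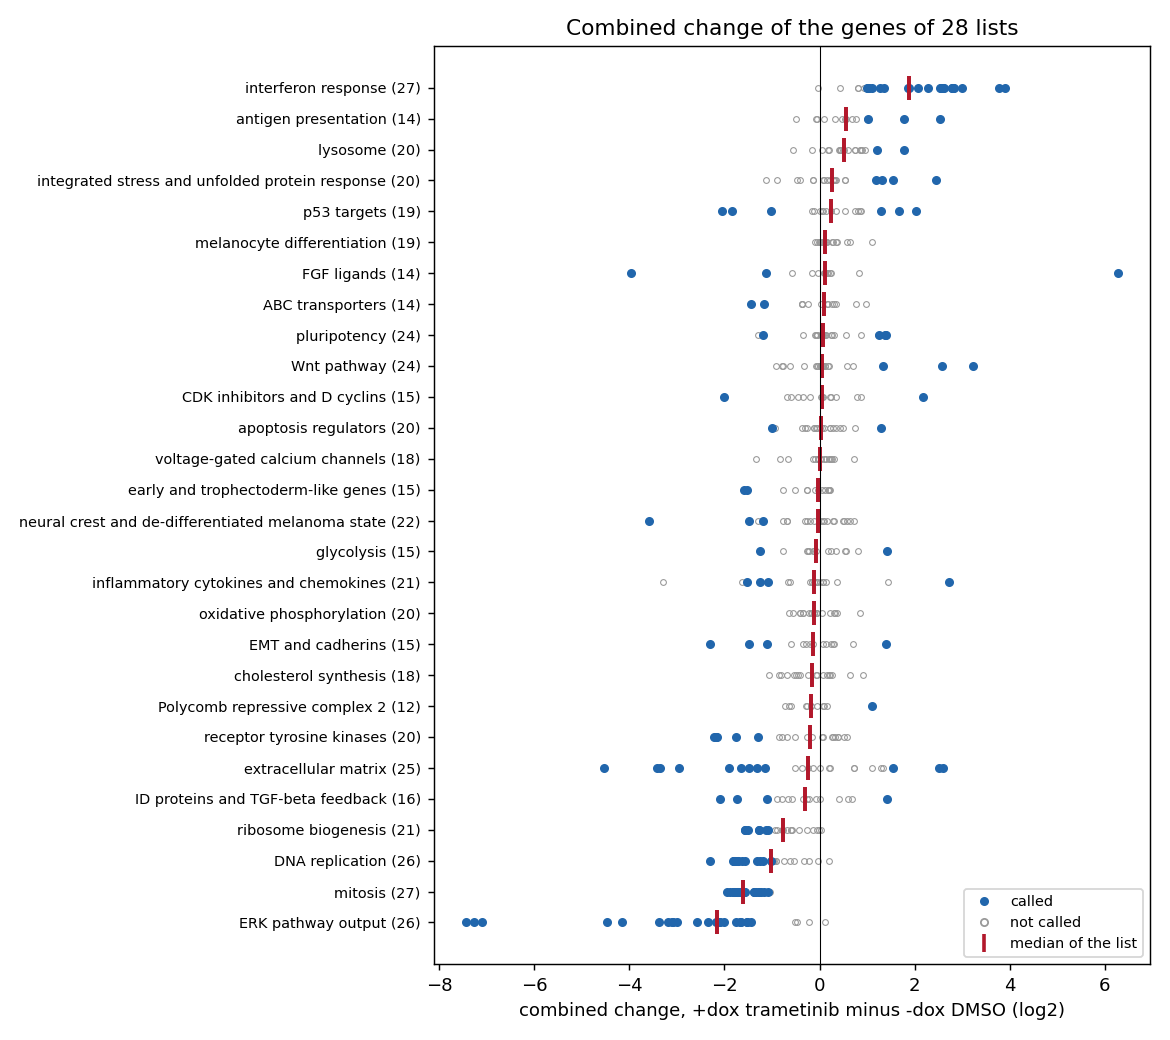
Combined change of +dox trametinib minus -dox DMSO (log2) of the measured genes of 28 lists, 1 row per list in the order of its median (red bar), with the number of genes in brackets. Filled points mark genes called in the combined change. The interferon response list has the highest median, 1.88, and ERK pathway output the lowest, -2.15.

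Of the 47 genes whose +dox trametinib mean lay above the sum with a called departure, +dox trametinib had the highest mean of the 4 groups in 36, and in 11 it was the only mean above background. Choosing genes above the sum favours such a pattern by itself. In 5 of the 47 genes all 4 means were under background. Cd3g, a subunit gene of the CD3 complex on T cells, gave the smallest p. It measured 8.78, 9.43 and 8.81 on the +dox trametinib arrays, 4.59, 4.98 and 4.91 under dox alone, 3.57, 3.61 and 3.27 under trametinib alone and 3.12, 3.32 and 3.62 on the -dox DMSO arrays. It was thus at least 4.23 higher in +dox trametinib than in -dox DMSO cells (adjusted p = 2.5e-08), with a departure of 4.05 (standard error 0.28, adjusted p = 2.3e-04). Frzb, a secreted Wnt antagonist, measured 6.92, 7.01 and 6.77 on the +dox trametinib arrays and was under background on every array of the other groups, 3.61, 3.68 and 3.72 in -dox DMSO cells (departure 2.44, adjusted p = 0.0075). Strip2 measured 7.17, 6.97 and 6.19, Khdc1a 6.48, 6.23 and 5.70 and Rpe65, the retinoid isomerase of the visual cycle, 6.74, 6.46 and 6.17 on the +dox trametinib arrays, and all other arrays of these 3 genes were under background. Their departures were 2.87, 2.31 and 2.08 (adjusted p = 0.0075, 0.0075 and 0.0075). Il17d, an interleukin, followed the same pattern, with 6.41, 6.20 and 5.66 on the +dox trametinib arrays and a departure of 1.76 (adjusted p = 0.014). Tbx21, the T-bet gene of T helper cells, reached only 5.30, 4.76 and 4.73, with 2 of its 3 arrays under background (departure 1.59, adjusted p = 0.0099). Fgf1 was under background on every array, so that its departure of 0.92 has no level behind it. In genes under background in several groups the size of a departure is a fitted value, since levels under 4.78 have no order.

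Below the sum lay 13 genes. Mfap3l measured 9.87, 9.86 and 9.31 on the +dox trametinib arrays, 9.47, 9.72 and 9.63 under dox alone, 9.55, 9.29 and 9.36 under trametinib alone and 7.48, 7.25 and 7.53 on the -dox DMSO arrays. Either factor alone raised it, by 2.19 for dox and 1.98 for trametinib, and both together by 2.26 (adjusted p = 6.3e-06), a departure of -1.91 (interval -2.39 to -1.42, adjusted p = 0.0075). With the mean of all its probe sets the departure was no longer called (adjusted p = 0.115). It was the 1 gene of the 13 with both single effects above 1. Prss46, a serine protease gene, measured 5.29, 5.05 and 5.03 on the +dox trametinib arrays, 6.51, 6.88 and 6.53 under trametinib alone and 4.31, 4.44 and 4.51, under background, on the -dox DMSO arrays. The rise under trametinib was at least 1.86, and the +dox trametinib arrays lay below every -dox trametinib array (departure -1.65, adjusted p = 0.0075). Bex1, an X-linked adaptor gene, showed the like of it for dox in value. It measured 5.39, 4.27 and 3.98 on the +dox trametinib arrays, 7.91, 6.62 and 7.07 under dox alone and 2.50, 3.23 and 2.84 on the -dox DMSO arrays. All means but that under dox alone were under background, and the departure of -2.84 (interval -4.00 to -1.68) missed the threshold (adjusted p = 0.057).

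Where the single effects had opposite signs, the combination took different sides. Chst11, a sulfotransferase of chondroitin, had -2.74 for dox and 2.75 for trametinib. It averaged 6.12 ± 1.06 on the +dox trametinib arrays and 7.70 ± 0.35 on the -dox DMSO arrays (SD, n = 3 each), without overlap, so that it fell by 1.58 (adjusted p = 0.023), on the side of dox. The call was lost with the mean of its probe sets and in the fit on the compared groups only. It was also lost without +dox trametinib replicate 1 or 3 or -dox DMSO replicate 1 or 2. The adjusted p reached up to 0.125. Ptpn22, a phosphatase of lymphocyte signalling, had 3.77 for dox and a fall by at least 1.49 for trametinib, under background on all its arrays, and measured 4.89, 5.34 and 6.10 on the +dox trametinib arrays. That overlapped with 6.05, 6.35 and 6.41 on the -dox DMSO arrays (adjusted p = 0.18). The departure of Ptpn22, -2.50 (interval -3.77 to -1.23, adjusted p = 0.11), is a fitted value. Tspan8, a tetraspanin, had 2.25 for dox and a fall by at least 0.55 for trametinib, under background too, and a combined change of 0.85 (adjusted p = 0.25), where the arrays also overlapped. Iigp1, Gbp2 and Ifit1, which also had opposite single effects over 1 in size, took the side of trametinib.

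Of 24 pluripotency genes, 10 of them under background in all groups, 3 rose (Cdh1, Klf2 and Pou5f1) and 1 (Nanog) was called as lower, against 4.46% and 4.55% of all genes. Klf2, a factor of the naive state, rose by 1.37 (7.87, 7.20 and 7.54 against 6.39, 5.86 and 6.26, adjusted p = 6.7e-04), less than under trametinib alone (2.08). Nanog was lower by value (3.19, 3.00 and 3.60 against 3.88, 4.62 and 4.88, adjusted p = 0.0051), but its +dox trametinib arrays and 2 of its -dox DMSO arrays were under background. None of the 19 melanocyte genes was called by limma, with 2 higher at an adjusted p under 0.05 alone and 6 at an unadjusted p under 0.05. Over all genes 12.5% were higher at the adjusted p alone, and at least 24.0% had an unadjusted p under 0.05. Mitf measured 8.70, 7.93 and 7.94 on the +dox trametinib arrays and 7.13, 7.84 and 7.66 on the -dox DMSO arrays (adjusted p = 0.13). Among 22 genes of neural crest and de-differentiated melanoma 3 fell and 0 rose. Aqp1, a water channel, fell by at least 2.62 (3.55, 3.95 and 3.91 against 6.49, 7.89 and 7.81, adjusted p = 5.0e-05), and Nrg1, a ligand of ERBB receptors, by 1.20 (adjusted p = 0.0072). Of 15 early and trophectoderm-like genes 2 fell, Krt19, a keratin of simple epithelia, by at least 1.31 (adjusted p = 0.002) and Gata3, a transcription factor of trophectoderm and T cells, by 1.53 (adjusted p = 0.0048). Of 12 genes of Polycomb repressive complex 2 and its cofactors 1 rose, Jarid2 by 1.10 (adjusted p = 0.015, up to 0.0626 without +dox trametinib replicate 1 or -dox DMSO replicate 2 or 3). Wnt5a, a Wnt ligand linked to invasive melanoma, had -0.88 for dox and -1.47 for trametinib, yet a combined change of 0.59 (adjusted p = 0.42). Its departure of 2.94 (interval 1.53 to 4.35) was not called (adjusted p = 0.10).

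No gene of 18 measured voltage-gated calcium channel subunits was called by limma. An unadjusted p under 0.05 was reached by 5 of them, where at least 24.0% of all genes reached it. In all groups 9 were under background. The subunits of T-type channels were among these. Cacna1h measured 3.73, 3.66 and 3.83 on the +dox trametinib arrays and 3.38, 3.55 and 3.71 on the -dox DMSO arrays (adjusted p = 0.33), and Cacna1g 4.55, 4.40 and 4.36 on the +dox trametinib arrays and 4.17, 4.36 and 4.10 on the -dox DMSO arrays (adjusted p = 0.30). At these levels a difference was not detectable. Cacna1i is not analysed here. Cacna1a, a P/Q-type subunit, was above background but overlapped between the groups (6.48, 6.47 and 7.23 against 5.79, 7.31 and 7.34, adjusted p = 0.92). Map3k8, a kinase that can activate MEK without RAF, rose by 1.48 (7.82, 7.73 and 7.90 against 7.04, 5.97 and 6.01, adjusted p = 0.0026), beside -0.26 for dox and 2.05 for trametinib. Its departure was -0.31 (interval -1.17 to 0.54).

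Of 15 CDK inhibitors, D cyclins and related genes, Rb1 rose and Ccnd1 fell. Rb1, the retinoblastoma gene, measured 11.67, 11.47 and 11.38 on the +dox trametinib arrays, 10.40, 10.40 and 10.40 under dox alone, 11.08, 10.88 and 10.89 under trametinib alone and 9.42, 9.24 and 9.32 on the -dox DMSO arrays. It rose by 2.18 (standard error 0.10, adjusted p = 4.8e-07), against 1.07 for dox plus 1.62 for trametinib, and its departure of -0.52 was not called (interval -0.83 to -0.20, adjusted p = 0.18). Of 19 p53 targets 3 rose and 3 fell, against 4.46% and 4.55% of all genes. Perp, a desmosome gene, rose by 2.02 (adjusted p = 1.1e-04) with dox at 2.59, and Fas, a death receptor, by 1.68 (adjusted p = 0.006) with trametinib at 1.67. Btg2 fell by 2.05 (adjusted p = 1.9e-04) and Plk2 by 1.83 (adjusted p = 0.0041). The members that changed thus went in both directions. Of 20 apoptosis regulators 1 rose (Pmaip1, the gene of NOXA) and 1 fell. The call of Pmaip1 was lost without any 1 of 6 arrays, up to an adjusted p of 0.138. Apaf1, the core of the apoptosome, fell by 1.01 (8.51, 8.42 and 8.69 against 9.61, 9.55 and 9.48, adjusted p = 3.5e-05), with an interval of its departure of -0.25 to 0.33. Of 20 genes of the integrated stress and unfolded protein response 4 rose and 0 fell, against 4.46% of all genes that rose. Atf3, a stress-induced transcription factor, rose by 2.45 (8.72, 8.26 and 7.52 against 5.33, 5.97 and 5.84, adjusted p = 5.7e-04), where trametinib alone gave 3.53. Ddit3, the gene of CHOP, rose by 1.32 (adjusted p = 0.0033). In glycolysis, where 1 of 15 genes rose and 1 fell, the glucose transporters moved apart, Slc2a1 by 1.41 (adjusted p = 0.0018) and Slc2a3 by -1.26 (adjusted p = 0.0068). None of 18 cholesterol synthesis and 20 oxidative phosphorylation genes was called with the fold threshold by limma, where 4 and 5 of them passed the adjusted p alone and 5 and 11 an unadjusted p under 0.05. Over all genes 24.0% passed the adjusted p alone, so that at least this share passed the unadjusted one. Abcg2 and Abcc4, drug efflux pumps, fell by 1.44 (adjusted p = 0.0045) and 1.16 (adjusted p = 8.1e-04), the 2 calls among 14 ABC transporters.

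Markers of other cell types were measured beside these changes, and their part in the changes was not tested. Ptprc, the marker of all leukocytes, measured 2.93, 2.79 and 2.98 on the +dox trametinib arrays and 2.82, 3.04 and 2.98 on the -dox DMSO arrays, all under background. Of 9 measured lymphocyte markers only Cd3g was called. Cd3d measured 5.01, 5.50 and 5.26 on the +dox trametinib arrays and 4.81, 4.86 and 4.89 on the -dox DMSO arrays, and Cd3e 5.58, 5.86 and 5.59 and 5.31, 5.40 and 5.37, differences of 0.40 and 0.32 beside the bound of 4.23 for Cd3g. The log2 of the summed intensity of the 9 markers was 9.43 to 9.90 on the +dox trametinib arrays and 7.81 to 7.88 on the -dox DMSO arrays. Cd3g alone averaged 9.01 on the +dox trametinib arrays. It thus made up a large part of that sum, which does not show a rise of the markers as a group. Of 13 myeloid markers 1 rose and 1 fell. Mpeg1, a pore-forming protein of macrophages that interferon can induce, measured 9.18, 7.83 and 7.99 on the +dox trametinib arrays and 3.88, 5.01 and 4.64 on the -dox DMSO arrays, a rise by 3.82 (adjusted p = 2.4e-04). Cd14 fell by 1.70 (adjusted p = 0.0055), and Tyrobp, Aif1, C1qb and Adgre1 were under background in all groups. The summed myeloid level was 9.09 to 9.89 on the +dox trametinib arrays and 8.81 to 9.37 on the -dox DMSO arrays. Of 10 fibroblast markers 4 fell and 0 rose, and their summed level was 10.87 to 11.18 on the +dox trametinib arrays and 11.80 to 12.17 on the -dox DMSO arrays. Of 8 endothelial markers Egfl7 fell by 1.96 (adjusted p = 3.3e-06), and of 7 keratinocyte markers Trp63, the gene of p63, fell by at least 2.70 (adjusted p = 1.0e-04).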

How the data were processed

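RNA of 12 samples of C790 cells was measured on Affymetrix GeneChip mouse genome arrays, 3 for each of the 4 groups. The deposited values are log2 intensities that the authors made from the scanned arrays by RMA (background correction, quantile normalization and summary per probe set) in Chipster; software versions are not given in the sources used here. They run from 2.15 to 14.46. Depth has no meaning on arrays, and the number of arrays limits the precision: the median standard error was 0.14 for a combined change and 0.198 for a departure.

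Of 45101 probe sets, 10156 were not used, among them 64 controls and 932 that are annotated to several genes. Each of 18193 genes was described by its brightest probe set on average, out of 34945 probe sets of a single gene. Symbols came from the platform annotation, and 34741 probe sets had a gene ID known to RefSeq. limma 3.58.1 (run in R 4.3.3) fitted the group means by lmFit and eBayes, with contrasts for the combined change, both single effects and the departure, and Benjamini-Hochberg adjustment over all genes. The fit was tested on simulated data. The background level was the 95th percentile of 83 probe sets for odorant, vomeronasal or taste receptors.

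Genes were named by rule: the 10 largest rises and falls without overlap of arrays, the 10 smallest p for the departure, up to 3 called members per list in its main direction, up to 2 in the other and the member with the largest departure, 6 genes each with single effects over 1 of the same and of opposite sign, the factors of the cassette, and genes the study names. Cd3d, Cd3e, Cdc20, Cdk1, Dkk1, Dkk3, Dusp5, Egr3, Hbegf, Kif11, Myc, Oas1a, Oasl2, Plaur, Ptprc, Rsad2, Sfrp2, Wif1 and genes given only as under background or not called fall outside it and were chosen after their values were seen. Members and lists were chosen with earlier results of these data known. No list was given a test of its own. Alternatives were the fit on the compared groups only, array weights, a replicate block, trended and robust shrinkage, other scaling, other summaries of probe sets, a filter on low values, other thresholds and leaving out each array.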

Additional observations from a re-analysis of the deposited data

Results flagged for a closer look

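The departure is at the same time the difference between the effect of trametinib in +dox cells and its effect in -dox cells, and it passed limma's test of that difference in 60 genes. Among the named genes, the effect of trametinib was higher in +dox cells by 4.65 in Ifit1, 4.60 in Iigp1, 3.44 in Gbp2, 3.36 in Gbp3 and 2.30 in Samd9l, all of the interferon response. It was higher by 4.05 in Cd3g, 2.87 in Strip2, 2.63 in Egr2, 2.44 in Frzb, 2.31 in Khdc1a, 2.08 in Rpe65 and 1.76 in Il17d. Strip2, Frzb, Khdc1a, Rpe65 and Il17d had 3 group means under background, Cd3g and Egr2 had 2, and Iigp1 had 1. The sizes in these genes are thus fitted values. Tbx21 and Fgf1 passed with fitted departures of 1.59 and 0.92, but Tbx21 was under background on 11 of the 12 arrays and Fgf1 on all of them, so that no level stands behind these sizes. The effect of trametinib was lower in +dox cells in 2 of the named genes, with -1.91 in Mfap3l and -1.65 in Prss46. Prss46 had 2 group means under background, so that its size is a fitted value too. No group had enough arrays to test for a single array far from the others.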

How the results depend on the processing

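No called change of a named gene and no median departure in the direction of the change turned its sign under any of the 20 alternatives that could be run, 12 of which left out 1 array each. The number of genes called in the combined change was 4362 without the fold threshold and 1334 to 1730 with 1 array left out. The number of called departures was 141 with a replicate block (85 above the sum and 56 below), 217 with arrays centred on their median, 1065 with array weights (680 above and 385 below), 11 at an adjusted p under 0.01 and 13 to 200 with 1 array left out. For dox under DMSO the count was 1118 without the fold threshold, 252 at an adjusted p under 0.01, and 285 to 591 with 1 array left out, the lowest without +dox DMSO replicate 2 or 3 (285 and 299). For trametinib without dox it was 4072 without the fold threshold and 1230 to 1450 with 1 array left out. The median departure in the direction of the change was 0.11 for rises and -0.093 for falls with centred arrays, and 0.083 and -0.04 without the fold threshold, where more genes enter. The background level was 4.32 at the 90th and 5.42 at the 99th percentile. The causes of the other changes were not tested. Centring moves the combined change by 0.043, the effect of dox by 0.093 and that of trametinib by 0.133. Of 111 combined changes of named genes with an adjusted p under 0.05, whatever their fold, 17 had a higher one under at least 1 alternative, most often Mcm10 (12) and Sesn1 (10). Of 16 called departures 8 did, most often Egr2 (10), Fgf1 (9) and Gbp3 (9). Replicate numbers were not taken to pair the samples of the combined change or the departure, since deviations of same-numbered arrays correlated at 0.26, 0.29 and 0.01 between +dox trametinib and -dox DMSO and at 0.06, -0.0037 and -0.076 between +dox DMSO and -dox trametinib. Between +dox DMSO and -dox DMSO they correlated at 0.34, 0.17 and 0.23, and with the replicate block the dox count was 567. The other pairs of groups correlated more in part. For +dox trametinib the values were 0.25, 0.45 and 0.16 with +dox DMSO and 0.29, 0.21 and 0.27 with -dox trametinib. Between -dox trametinib and -dox DMSO they were 0.30, 0.46 and 0.02. The fit on the compared groups alone cannot give a departure.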
